A study of Mus musculus with 27 samples.

Results

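The N1 and N3 viewpoints at the *Nkx3-2* locus were compared in limb tissue over 12 of the 27 4C-Seq libraries of the series. These were the 3 forelimb and 3 hindlimb libraries read from N1 and the 3 forelimb and 3 hindlimb libraries read from N3, chosen by the tissue and viewpoint in their titles. All came from embryos at E14.5 of an unselected C57BL/6 background, given as C57BL/6Ncrl in the sample characteristics and as C57BL/6NJ in the protocol. No allele or treatment distinguished the groups. Each replicate pooled the buds of 5 to 6 embryos, so variation between single embryos was not measured, and whole buds were used, so contacts were averaged over all cell types of the bud. One ligated template was amplified with a pool of viewpoint primers, and therefore an N1 and an N3 library of the same tissue and replicate number shared their chromatin. The data were the number of reads on each of 949826 BglII fragments of the mouse genome (GRCm38). The remaining libraries were from a further viewpoint, N2, or from liver.

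4C-Seq (circular chromosome conformation capture followed by sequencing) starts from cross-linked chromatin that is cut with a restriction enzyme and ligated, so that pieces of DNA lying close together in the nucleus become joined. Reading out from a primer in one fragment, the viewpoint, gives the fragments to which it was joined. Contacts fall with distance along the chromosome and are more frequent within a topologically associating domain (TAD), a stretch of chromatin whose parts contact each other more than they contact their surroundings. N1 and N3 are putative enhancers, regulatory elements that can act on a gene over a distance, and lie in one TAD with *Nkx3-2* (also *Bapx1*), a homeobox gene that represses chondrocyte maturation in the growing skeleton. *Rab28*, which encodes a small GTPase, lies between N3 and *Nkx3-2*, and *Bod1l*, which encodes a protein that protects stalled replication forks, crosses the far end of the TAD.

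The TAD spanned chr5:41050000-41810000 (GRCm38). The N1 viewpoint at position 41165743 was 115.7 kb from the nearer end of the TAD and 644.3 kb from the *Nkx3-2* end. The N3 viewpoint at position 41535802 was 485.8 kb from the first end and 274.2 kb from the *Nkx3-2* end, and the viewpoints were 370.1 kb apart. *Nkx3-2* (chr5:41761483-41764501), *Rab28* (chr5:41624976-41708157) and *Bod1l* (chr5:41787538-41844315) are all on the minus strand in the GENCODE annotation. Both primer pairs read towards *Nkx3-2*, on the plus strand. The sequence around each pair of primers is shown because it sets what each viewpoint can read, with the BglII cut sites in capitals (plus strand, N1 chr5:41165684-41165772 and N3 chr5:41535787-41535833).
N1 viewpoint: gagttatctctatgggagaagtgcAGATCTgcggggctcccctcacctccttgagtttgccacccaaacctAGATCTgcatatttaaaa
N3 viewpoint: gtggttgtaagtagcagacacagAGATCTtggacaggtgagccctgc
The inner, nested primer of N1 (cttgagtttgccacccaaac) lay in a BglII fragment of 47 bases, while its outer primer lay across the first cut site in a neighbouring fragment of 16477 bases. For N3, both primers lay in the same fragment of 5759 bases, and the last 4 bases of the nested primer (gttgtaagtagcagacacagagat) were within the cut site. The BglII sites of the reference matched 51861 of the 51861 internal fragment ends on Chr5.

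A further 6 stretches of 60 bases show cut sites of fragments that the results turn on, again with the BglII site in capitals and all on the plus strand. One was beside fragments with reads in every N1 library (chr5:41138384-41138443), and one ended a fragment reached from N1 and from no N3 library (chr5:41206575-41206634). A set of 3 bounded fragments reached from both viewpoints (chr5:41313551-41313610, chr5:41406830-41406889 and chr5:41608413-41608472). The last ended a fragment read in every N3 library and in no N1 library (chr5:41514409-41514468).
Near N1: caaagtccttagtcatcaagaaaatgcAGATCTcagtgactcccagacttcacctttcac
N1 and not N3: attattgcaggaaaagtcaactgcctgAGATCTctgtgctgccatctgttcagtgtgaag
Both, between N1 and N2: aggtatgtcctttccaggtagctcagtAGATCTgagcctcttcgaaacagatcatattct
Both, beside N2: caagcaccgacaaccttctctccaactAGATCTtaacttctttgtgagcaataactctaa
Both, between N3 and Rab28: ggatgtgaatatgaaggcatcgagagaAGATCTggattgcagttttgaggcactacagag
N3 and not N1: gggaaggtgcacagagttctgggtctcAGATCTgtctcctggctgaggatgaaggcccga

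The viewpoints differed most in depth. The forelimb N1 libraries held 20134, 11176 and 15232 reads and the hindlimb N1 libraries 8460, 2984 and 8812. The forelimb N3 libraries held 1772337, 1440034 and 1421108 reads and the hindlimb N3 libraries 1628953, 924023 and 1582176. The median N3 library was 151-fold deeper than the median N1 library, and no N1 library came near the shallowest N3 library. Reads carried no molecular tags, so a difference in depth and a difference in the number of ligations amplified cannot be told apart. In N3 libraries 10.4% to 23.4% of reads lay within 20 kb of the viewpoint, where uncut and self-ligated products collect, against 0.670% to 6.28% in N1 libraries. The N3 primer fragment alone held 74363 to 144107 reads, and the fragment after it 32593 to 137006. The 47-base N1 fragment held 2 to 102 reads, and the next one on the *Nkx3-2* side held the same number in every limb library. All fragments with a midpoint within 20 kb of a library's own viewpoint were left out of what follows.

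Most reads lay on other chromosomes from either viewpoint. They made up 77.3% to 88.6% of the reads of the N1 libraries (median 82.8%) and 71.2% to 83.5% of those of the N3 libraries (median 78.3%), ranges that overlapped. The TAD held 507, 160 and 602 reads in the forelimb N1 libraries and 595, 209 and 310 in the hindlimb N1 libraries. It held 971, 888 and 1284 reads in the forelimb N3 libraries and 1137, 175 and 1867 in the hindlimb N3 libraries. In spite of the difference in depth, the TAD read counts of the groups overlapped. As a percentage of all reads, the TAD took 1.43% to 7.03% from N1 and 0.0189% to 0.118% from N3, with no overlap.

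From the whole of each library, N1 and N3 reached like shares of the nearest fragments and N3 reached more of the distant ones. The share of fragments with at least 1 read at 20 to 50 kb was 20.6% to 38.2% in N1 libraries (median 23.5%) and 14.8% to 33.3% in N3 libraries (median 20.4%), and the groups overlapped. The difference of 4.38 percentage points did not pass (exact two-sided permutation test over 6 and 6 libraries, p = 0.297, adjusted p = 0.334 over 9 distances). At 50 to 100 kb the means were 14.7% ± 8.32 and 14.1% ± 5.79 (SD, n = 6 each; exact permutation test, adjusted p = 0.881). At 100 to 200 kb the N1 mean was 9.59% ± 4.58 and the N3 mean 19.0% ± 8.60 (n = 6 each; exact permutation test, adjusted p = 0.0529, and 0.0469 with libraries of one template paired). The N3 library was higher in 6 of the 6 pairs at that distance. With fragments within 20 kb of N1, N2 or N3 left out of every library, the N3 mean there was 12.5% and the N1 mean unchanged (exact permutation test, adjusted p = 0.633).

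N3 was higher at all 6 distances from 200 kb outwards. At 200 to 500 kb the N1 libraries reached 0.810% to 5.26% of fragments (median 4.05%) and the N3 libraries 6.01% to 15.5% (median 9.87%), without overlap. Beyond 10 Mb the N1 libraries reached 0.0536% to 0.239% of Chr5 fragments (median 0.176%) and the N3 libraries 1.76% to 2.48% (median 2.12%). The ratio of the N3 mean to the N1 mean was 3.14 at 200 to 500 kb and 12.7 beyond 10 Mb. The adjusted p-value was 0.00390 at 5 of these distances (exact permutation test, 6 libraries each). The smallest unadjusted p that 924 arrangements of the libraries allow is 0.00216, and it was reached at each of the 5. The call at 200 to 500 kb was lost when at least 2 reads were required of a fragment (exact permutation test, adjusted p = 0.0552), and with at least 10 it was lost at 1 to 2 Mb as well (adjusted p = 0.123 at both in the exact permutation test). At 500 kb to 1 Mb the groups overlapped (2.01% ± 0.671 and 3.65% ± 1.35, exact permutation test, adjusted p = 0.0422). That call was lost with at least 2 reads required (exact permutation test, adjusted p = 0.437) and in the exact test with templates paired (adjusted p = 0.120). It was lost as well when single libraries were left out, up to an adjusted p of 0.0942 in the exact permutation test without hindlimb N3 replicate 3. It held without forelimb N1 replicate 3, forelimb N3 replicate 3 or hindlimb N3 replicate 2.

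**Figure D1:**
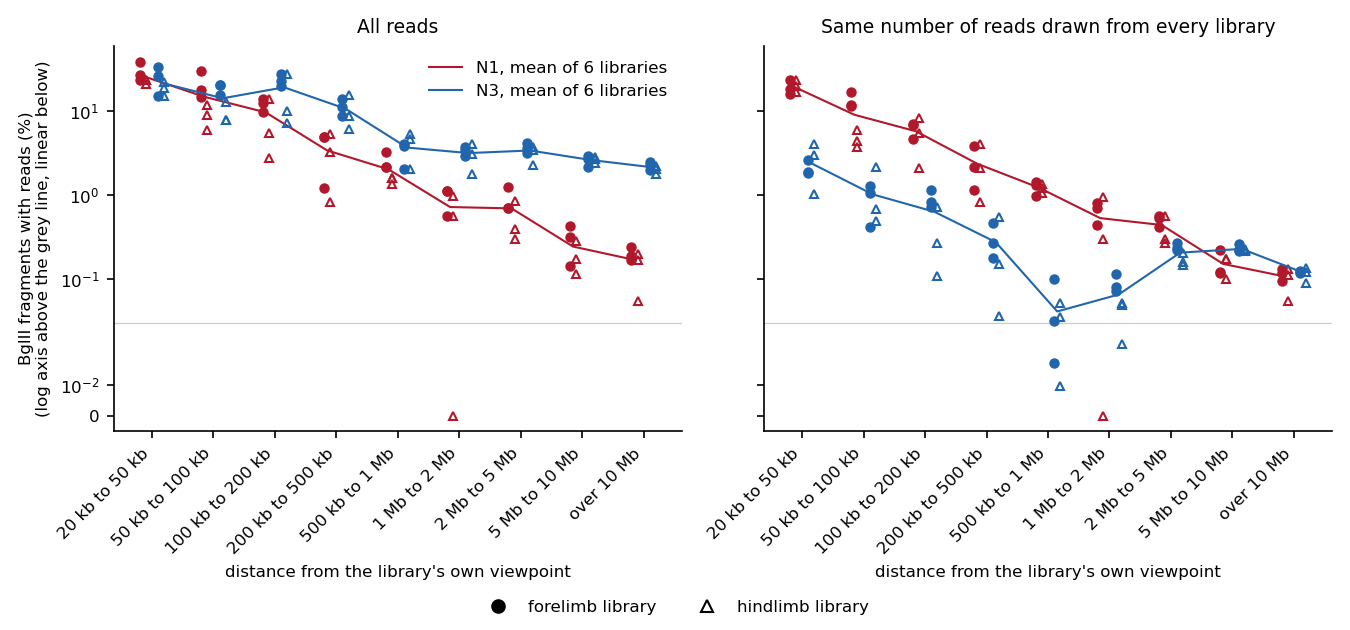
Percentage of BglII fragments with at least 1 read against distance from the library's own viewpoint, from all reads (left) and as the mean outcome of drawing 2964 reads over 20 kb from the viewpoint from each library (right). Each point is a library, lines join the means of 6, and the vertical axis is logarithmic above 0.03% and linear below. With all reads the N3 points lie above the N1 points from 200 kb outwards, apart from some overlap at 500 kb to 1 Mb, and at equal reads the N1 points lie above the N3 points up to 5 Mb, apart from 1 N1 library at 0 at 1 to 2 Mb.

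With the libraries brought to an equal number of reads the order turned. Each library was reduced to 2964 reads over 20 kb from its viewpoint, the number in the shallowest library (hindlimb N1 replicate 2), as the expected value of drawing reads without replacement. At 20 to 50 kb the expected share was 15.8% to 23.5% from N1 (median 19.2%) and 1.01% to 4.00% from N3 (median 2.22%). At 500 kb to 1 Mb it was 0.955% to 1.44% from N1 (median 1.26%) and 0.00958% to 0.0999% from N3 (median 0.0329%). Neither pair of groups overlapped. N1 was higher at 7 of the 9 distances, all those up to 5 Mb, by 2.13-fold at 2 to 5 Mb and by 8.13-fold to 29.9-fold nearer in. The folds depended on how reads were made equal. With equal reads on Chr5 alone N1 was higher at 6 distances, by 3.19-fold to 12.1-fold, and the means at 2 to 5 Mb were 0.526% and 0.416% (exact permutation test, adjusted p = 0.275). With equal reads over the genome the adjusted p-value was 0.00325 at 6 of the 7 (exact permutation test, 6 libraries each). At 1 to 2 Mb hindlimb N1 replicate 2 had no fragment with reads. The exact permutation test gave an adjusted p of 0.0170 there, and the exact test with templates paired one of 0.0703.

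Further out N1 was no longer the higher. At 5 to 10 Mb the expected share was higher from N3 (0.226% ± 0.0163) than from N1 (0.150% ± 0.0462, n = 6 each; exact permutation test, adjusted p = 0.0111), although the groups overlapped. Beyond 10 Mb the means were 0.106% ± 0.0295 from N1 and 0.118% ± 0.0153 from N3 (exact permutation test, adjusted p = 0.442). With at least 2 reads required of a fragment, N1 was higher beyond 10 Mb (0.0610% and 0.0342%, exact permutation test, adjusted p = 0.0334). The calls at 50 to 100 kb and at 5 to 10 Mb were then lost (exact permutation test, adjusted p = 0.126 and 0.114).

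The TAD was set against the other chromosomes within each library, since the latter carry that library's own depth. A ratio of shares of fragments with reads does not make the depths equal. Of the 275 TAD fragments over 20 kb from N1, the forelimb N1 libraries reached 45, 23 and 42 and the hindlimb N1 libraries 30, 14 and 32. Of the 273 over 20 kb from N3, the forelimb N3 libraries reached 48, 44 and 59 and the hindlimb N3 libraries 33, 21 and 59. On the other chromosomes the N1 libraries reached 0.0365% to 0.153% of 897964 fragments and the N3 libraries 1.52% to 2.02%. The groups thus overlapped in the TAD and were far apart elsewhere. The share of fragments reached in the TAD was 62.5-fold to 139-fold that on other chromosomes from N1 (median 113-fold), and 5.06-fold to 13.8-fold from N3 (median 8.48-fold). On the log2 scale, with 0.5 added to each number of fragments, the ratio was 6.78 ± 0.41 from N1 and 3.13 ± 0.55 from N3 (n = 6 each; exact two-sided permutation test, p = 0.00216, adjusted p = 0.00433 over 6 measures).

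Retention within the TAD, taken as the percentage of a library's Chr5 fragments with reads that lay inside it, was 17.2% to 25.6% from N1 (median 22.6%) and 2.17% to 5.31% from N3 (median 3.45%). Every N1 library lay above every N3 library, and the exact permutation test gave an adjusted p of 0.00433 (6 libraries each). By reads instead of fragments it was 18.2% to 40.6% from N1 (median 28.6%) and 0.350% to 2.64% from N3 (median 1.02%), again without overlap and with the same p. With 50 kb instead of 20 kb around the viewpoint left out, the means by reads were 10.4% and 0.835%, and the exact permutation test gave an adjusted p of 0.00779. In forelimb the fragment means were 21.6% and 4.07%, and in hindlimb 23.1% and 3.27%. With 3 libraries against 3 an exact permutation test cannot go below 0.1, the value it gave in each tissue. The 3 liver libraries of each viewpoint, measured in the same way, gave 11.3% to 20.2% from N1 and 3.22% to 4.39% from N3. In liver too, every N1 library was higher than every N3 library. With every fragment within 20 kb of N1, N2 or N3 left out of every library, the means were 20.7% and 2.94%.

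**Figure D2:**
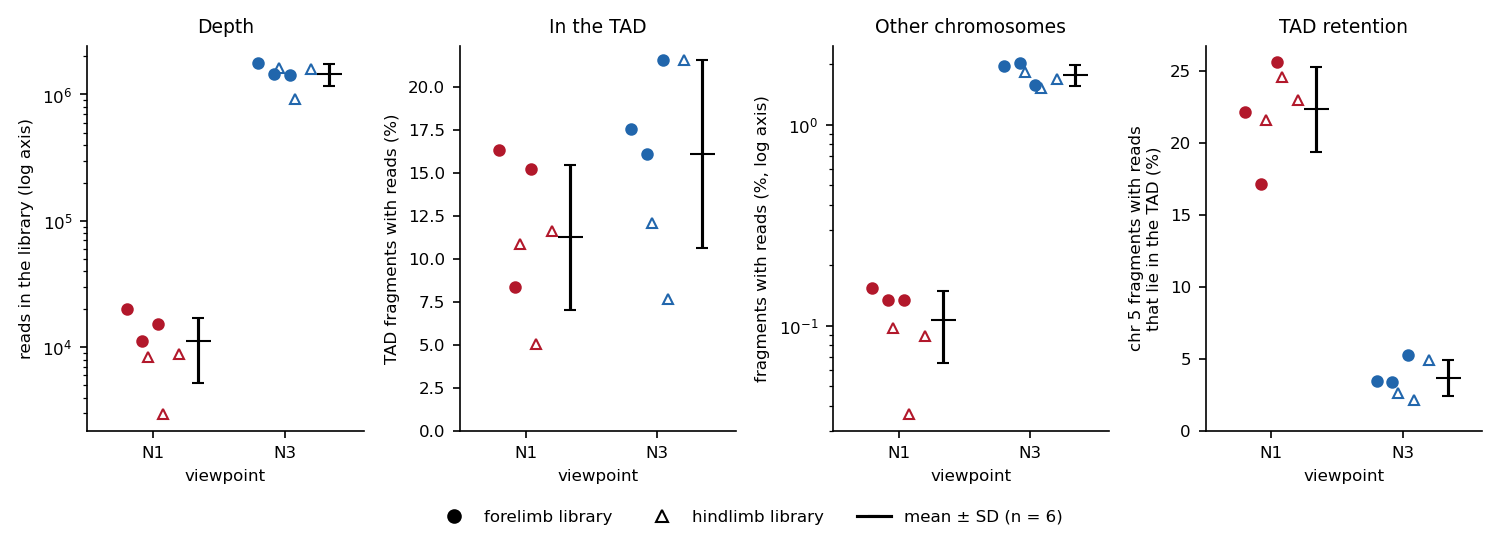
Depth, share of TAD fragments with reads, share of fragments with reads on other chromosomes, and percentage of Chr5 fragments with reads that lie in the TAD, for each limb library (filled circles forelimb, open triangles hindlimb) with mean ± SD of 6. N1 and N3 overlap in the TAD share, while depth and the share on other chromosomes are higher in all N3 libraries and TAD retention is higher in all N1 libraries.

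The viewpoints do not sit at the same place in the TAD, so equal distances inside and outside it were also compared. Between 274.2 and 485.8 kb from either viewpoint, one side lies inside the TAD and the other outside. The inside arm was on the *Nkx3-2* side for N1 and on the opposite side for N3. From N1, the forelimb libraries reached 6, 3 and 10 of the 82 inside fragments and the hindlimb libraries 7, 0 and 6. Of the 98 outside fragments 5 of the N1 libraries reached 0, and hindlimb replicate 2 reached 2. A count of 0 allows a share of up to 3.06% if fragments are independent. Neighbouring fragments often held equal counts, so the true limit is looser. From N3, the forelimb libraries reached 11, 12 and 14 of 82 inside fragments and 5, 2 and 7 of 82 outside. The hindlimb N3 libraries reached 12, 5 and 16 inside and 2, 3 and 7 outside.

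The inside arm was therefore the higher one in 5 of 6 N1 libraries and in 6 of 6 N3 libraries. The log2 ratio of inside to outside was 2.95 ± 2.51 from N1 and 1.41 ± 0.73 from N3 (SD, n = 6 each). Neither passed against 0 after adjustment (exact two-sided sign-flip test over 6 libraries, p = 0.0625 and 0.0312, adjusted p = 0.0938 for both over 6 tests). The smallest p that 6 libraries allow in this test is 0.0312. The difference between the viewpoints did not pass either (exact permutation test, 6 libraries each, p = 0.171). That it did not pass rested on hindlimb N1 replicate 2, the shallowest library. The difference was 1.55 with that library. Without it the difference was 2.55, with an adjusted p of 0.00325 (exact permutation test, 5 and 6 libraries). With all libraries kept and at least 10 reads required of a fragment, the difference was 0.50 (exact permutation test, adjusted p = 0.604). Since 5 N1 libraries had no outside fragment with reads, the N1 ratio depends on the 0.5 added to each number of fragments, and with 1 added it was 2.34. The inside arm also holds the other viewpoint, amplified in the same primer pool. With fragments within 20 kb of N1, N2 or N3 left out of every library, the ratios were 2.35 from N1 and 1.21 from N3. Neither passed against 0 (exact sign-flip test, adjusted p = 0.1125 and 0.0938). In liver the log2 ratio of inside to outside was 0.18 to 2.18 from N1 and 0.42 to 2.32 from N3 (3 libraries each). Those ranges overlapped.

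The sides were unlike nearer in. From 20 to 115.7 kb, distances inside the TAD on both sides, the N1 libraries reached 0% to 23.1% of the 39 fragments towards *Nkx3-2* (median 15.4%) and 15.4% to 46.2% of the 39 on the other side (median 25.6%). The N3 libraries reached 6.06% to 36.4% of the 33 fragments towards *Nkx3-2* (median 24.2%) and 3.85% to 17.3% of the 52 on the other side (median 11.5%). No N1 library favoured the *Nkx3-2* side and 5 of 6 favoured the other, whereas 5 of 6 N3 libraries favoured the *Nkx3-2* side. The log2 ratio towards over away was -1.31 ± 1.86 from N1 and 0.93 ± 0.93 from N3. Without hindlimb N1 replicate 2, which reached none of the 39 fragments towards *Nkx3-2*, the N1 mean was -0.65, and the viewpoints differed (exact permutation test, 5 and 6 libraries, adjusted p = 0.0238). Over all libraries they did so too (exact permutation test, 6 libraries each, p = 0.0130, adjusted p = 0.0156), and in each of the 6 pairs sharing a template the N3 ratio was higher. Neither viewpoint differed from 0 by itself (exact sign-flip test over 6 libraries, adjusted p = 0.0938 from N1 and 0.112 from N3). In the 3 liver libraries of each viewpoint the ratio was -0.21 to 0.00 from N1 and -1.41 to 0.09 from N3.

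The N1 side rested in part on a single cluster of fragments. All 6 N1 libraries had reads on the 5 fragments of chr5:41138209-41149231, 17.0 to 27.4 kb from N1 on the side away from *Nkx3-2*, where no gene is annotated. The most strongly read was chr5:41145334-41148352, with 296, 192 and 282 reads in the forelimb libraries and 242, 9 and 113 in the hindlimb libraries. Its reads outnumbered those of the N1 primer fragment in every limb library. The 20 kb limit ran through this cluster. With fragments up to 50 kb from the viewpoint left out, the log2 ratio towards over away was -0.84 from N1 and 2.03 from N3 (exact permutation test, adjusted p = 0.00779). Taken over reads and not fragments, from 20 kb, it was -3.59 and 0.38.

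At 1 to 10 Mb, outside the TAD, the sides were more even. The N1 libraries reached 0.196% to 0.815% of the 3069 fragments on the *Nkx3-2* side (median 0.456%) and 0.187% to 0.716% of the 3213 on the other (median 0.405%). The N3 libraries reached 2.22% to 3.17% of 3059 (median 2.37%) and 2.34% to 4.01% of 3166 (median 3.55%). The *Nkx3-2* side was the lower one in 6 of 6 N3 libraries and the higher one in 5 of 6 N1 libraries. The log2 ratio was 0.24 ± 0.35 from N1 and -0.39 ± 0.27 from N3 (exact permutation test, adjusted p = 0.00974), and 0.17 and -1.26 at equal reads. The call was lost in the exact permutation test when at least 2 reads were required of a fragment (adjusted p = 0.0571) and in the exact test with templates paired (adjusted p = 0.0750).

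**Figure D3:**
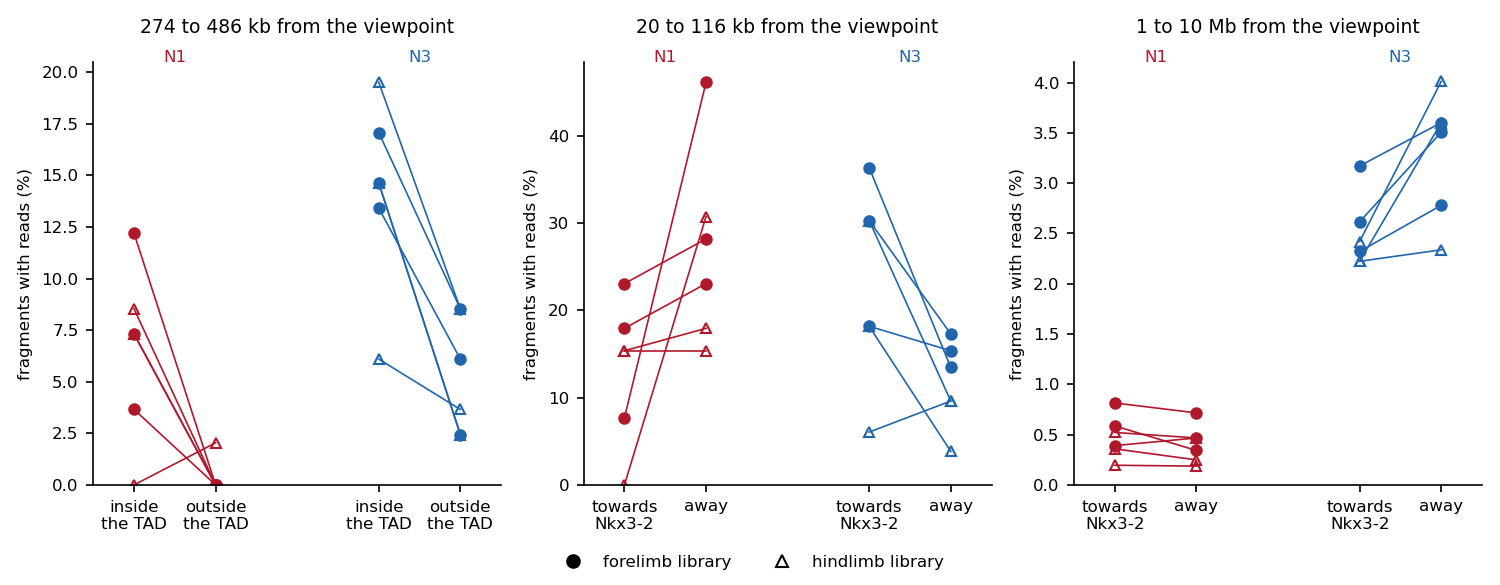
Percentage of fragments with reads on the 2 sides of the viewpoint in each limb library, inside against outside the TAD at 274.2 to 485.8 kb (left), and towards against away from *Nkx3-2* at 20 to 115.7 kb (middle) and at 1 to 10 Mb (right). Each line is a library (filled circles forelimb, open triangles hindlimb, red N1, blue N3). In the left panel 1 line rises, from hindlimb N1 replicate 2, and in the middle panel the N1 lines rise or are level while all but 1 of the N3 lines fall.

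Along the TAD, 265 fragments lay over 20 kb from both viewpoints. Of these, 97 had reads in at least 1 limb N1 library (36.6%) and 116 in at least 1 limb N3 library (43.8%), and 118 in neither. Both viewpoints reached 66, which were 68.0% of the fragments reached from N1 and 56.9% of those reached from N3. On the rest of Chr5, 594 of 51579 fragments were reached from N1 (1.15%) and 4405 from N3. There 96 were reached from both, 16.2% of the N1 fragments against 8.54% of all fragments there reached from N3, and 2.18% of the N3 fragments. On the other chromosomes 635 fragments were shared, 12.5% of the N1 fragments and 1.05% of the N3 fragments, where N1 reached 0.568% and N3 6.76% of all fragments. Of the 66 TAD fragments reached from both, 49 (74.2%) were also reached from N2 in limb, as against 43.4% of the 265. Fragments reached from both had a median length of 2.88 kb, and those reached from neither 1.02 kb. The part of fragment length in the overlap was not tested.

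Reads often filled neighbouring fragments with equal counts. In N1 libraries 60.9% to 87.5% of TAD fragments with reads had a neighbour with the same count, and in N3 libraries 56.8% to 72.7%. With each run of equal neighbours taken once, 38 fragments were reached from both, 59.4% of 64 from N1 (24.2% of the 265) and 46.3% of 82 from N3 (30.9% of the 265). The overlap also shrank when more libraries were required. With at least 2 libraries of each viewpoint it was 17 fragments, 34.7% of 49 from N1 (18.5% of the 265) and 29.3% of 58 from N3 (21.9% of the 265). With at least 3 libraries it was 3 fragments, 17.6% of 17 from N1 (6.42% of the 265) and 9.38% of 32 from N3 (12.1% of the 265).

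Recurrence among the libraries of one viewpoint was alike in the TAD and unlike elsewhere. Of the fragments reached from N1, 50.5% had reads in 2 or more N1 libraries in the TAD, 7.24% on the rest of Chr5 and 10.6% on other chromosomes. From N3, 58 of the 116 TAD fragments recurred, against 29.9% on the rest of Chr5 and 28.5% on other chromosomes. An N1 library shared 28.4% of its TAD fragments with the N3 library made from the same template and 25.3% with N3 libraries of other templates (means over 6). The first was higher for 3 of the 6. On other chromosomes the shares were 4.30% and 3.58%, the first higher for 5 of the 6, and on the rest of Chr5 5.27% and 5.95%, the first higher for 2.

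By zone, N1 reached 27 of the 39 fragments between the start of the TAD and N1 (69.2%), 44 of the 137 between the viewpoints (32.1%) and 26 of the 89 beyond N3 (29.2%). N3 reached 20 (51.3%), 58 (42.3%) and 38 (42.7%) of the same fragments. With all reads, N1 thus reached the larger share in its own end of the TAD and N3 the larger share in both other zones. The zones were not compared at equal reads, so these shares cannot be told apart from the difference in depth. Of the fragments beyond N3, 18 were reached from both.

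**Figure D4:**
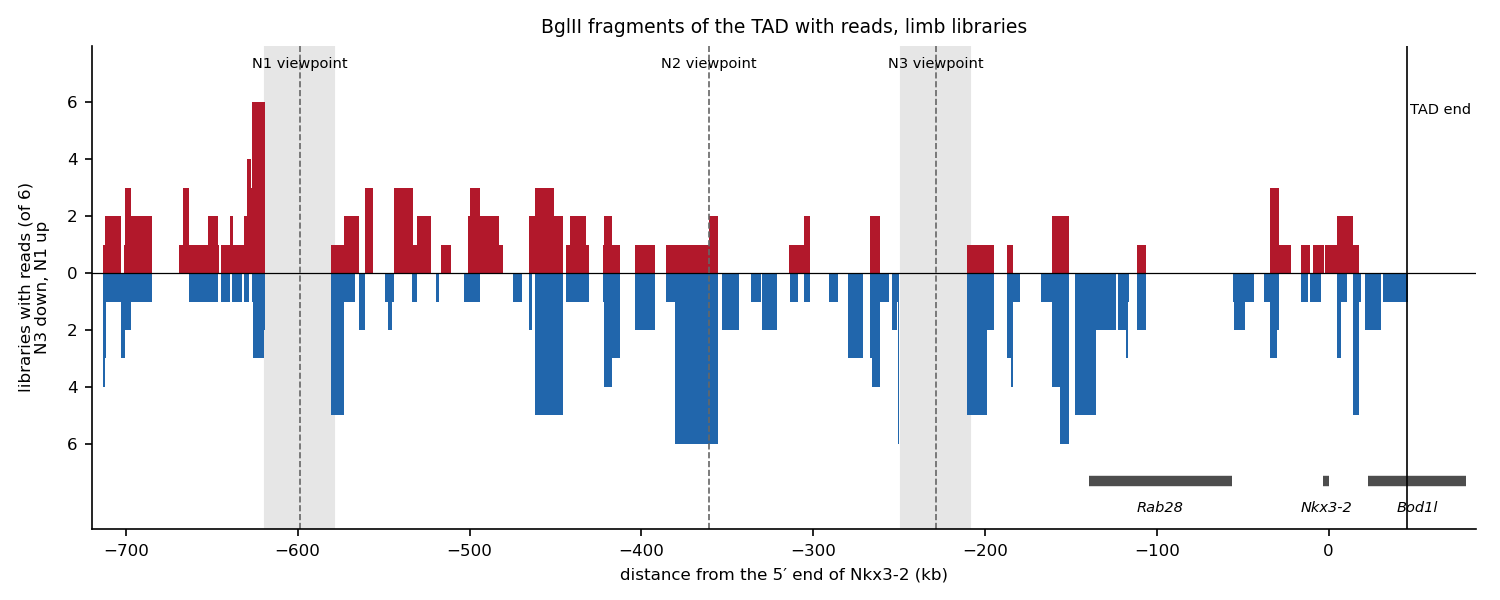
Number of limb libraries, of 6, with reads on each BglII fragment of the TAD, from N1 upwards and from N3 downwards, against distance from the 5′ end of *Nkx3-2* in kb. Grey bands mark the 20 kb on either side of N1 and N3 that were left out, dashed lines the viewpoints, and bars at the foot the genes. Counts of 6 occur from N1 only beside its own viewpoint, and from N3 beside N3, around the N2 viewpoint and short of *Rab28*.

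Of the 265 TAD fragments, 3 had reads in all 6 N1 libraries and 7 in all 6 N3 libraries. On the rest of Chr5 the numbers were 3 and 127 of 51579 fragments, and on other chromosomes 10 and 1936 of 897964. All 3 TAD fragments of N1 belonged to the cluster beside N1. Of the 7 of N3, 5 were contiguous over chr5:41383902-41409096 and lay within 20 kb of the N2 viewpoint, itself placed downstream of the N2 enhancer. The strongest of these, chr5:41386376-41396457, had 29, 74 and 47 reads in the forelimb N3 libraries and 28, 8 and 48 in the hindlimb N3 libraries. From N1 it had reads in hindlimb replicate 1 alone, where there were 3. N2 was amplified in the same primer pool, and whether that contributed reads here was not tested. Within 20 kb of the N2 viewpoint, N3 libraries held 18 to 177 reads (median 124), and 3 of the N1 libraries held none and the others up to 30. These counts were not brought to equal depth.

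Of the fragments with reads in at least 2 libraries of each viewpoint, 17 in number, the 10 present in the most libraries are described first, with ties settled by position. A pair of them were in the cluster beside N1. The larger, chr5:41138412-41144676, had 42, 5 and 97 reads in forelimb N1 and 175, 57 and 33 in hindlimb N1, against 0, 0 and 1 in forelimb N3 and 9, 0 and 1 in hindlimb N3. Every N1 library was above its N3 partner there.

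Between N1 and N2 lay chr5:41302411-41313578, which shares a cut site with another of the 10, chr5:41313579-41318913. It had 6, 0 and 0 reads in forelimb N1 and 0, 1 and 2 in hindlimb N1, and 0, 55 and 18 in forelimb N3 and 1, 2 and 1 in hindlimb N3. It was reached in all 3 liver libraries of either viewpoint. A further fragment of this zone, chr5:41342766-41347267, overlapped the processed pseudogene *Gm4754* and had reads in 2 N1 and 4 N3 libraries.

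Beside the N2 viewpoint, chr5:41404013-41406857 had 15, 0 and 0 reads in forelimb N1 and 0, 0 and 6 in hindlimb N1. The forelimb N3 libraries held 9, 21 and 11 reads on it and the hindlimb N3 libraries 6, 4 and 52. The next fragment, chr5:41406858-41409096, was reached in the same N1 libraries, with 10 and 6 reads, and in all N3 libraries, with 1 to 37. N3 thus reached this place in every library and N1 in forelimb replicate 1 and hindlimb replicate 3. That count of libraries was not adjusted for depth. The fragment holding the N2 primer and chr5:41404013-41406857 together took 0.0993% and 0.0681% of all reads in those N1 libraries. In the N3 libraries they took 0.000553% to 0.00423%.

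Towards *Rab28*, chr5:41608441-41613411 lay 75.1 kb from N3 and 445.2 kb from N1. It had 114, 62 and 227 reads in forelimb N3 and 39, 70 and 356 in hindlimb N3. In the N1 libraries it had 1 read in forelimb replicate 3 and 1 in hindlimb replicate 3. A single read is the lowest value a reached fragment can have. The fragment before it, chr5:41603556-41608440, was read in the same 2 N1 libraries, once in each, and in 4 N3 libraries. The last of the 10, chr5:41498675-41503660, was 34.6 kb from N3 and had 8 reads in forelimb N1 replicate 1, 1 in hindlimb N1 replicate 3, and reads in 4 N3 libraries.

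One more fragment, left out of the 10 by the order of ties and named after its values were seen, was among the 3 read in at least 3 libraries of each viewpoint. This was chr5:41730255-41734160, between *Rab28* and *Nkx3-2*. Its reads were 5, 0 and 1 in forelimb N1 and 8, 0 and 0 in hindlimb N1, and 0, 10 and 1 in forelimb N3 and 0, 0 and 2 in hindlimb N3. The counts were low in each library that had any, and it had reads in all 3 liver N3 libraries.

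**Figure D5:**
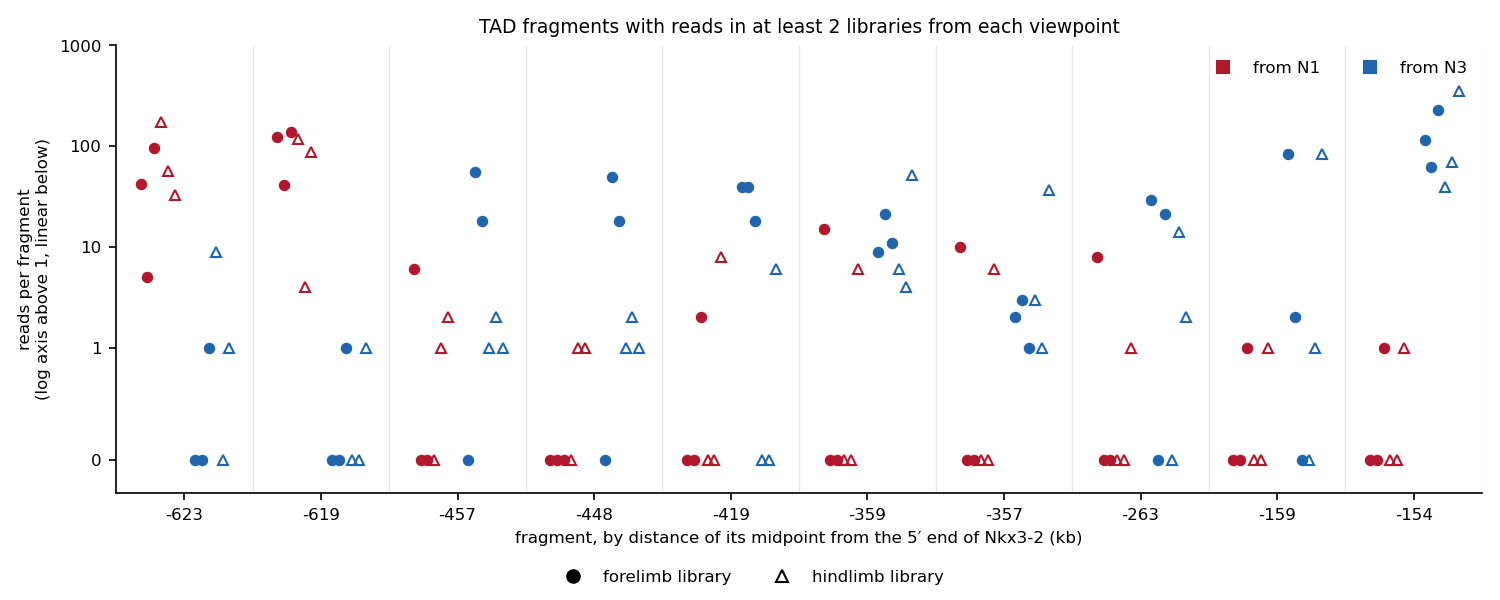
Reads in each limb library on the 10 named TAD fragments with reads in at least 2 libraries of each viewpoint, ordered by distance from the 5′ end of *Nkx3-2* (kb). Red points are N1 libraries and blue points N3 libraries (filled circles forelimb, open triangles hindlimb), and the vertical axis is logarithmic above 1 read and linear below. The first 2 fragments have reads in 6 of 6 N1 libraries, and at the last, near N3, all 6 N3 libraries hold 39 to 356 reads and 2 N1 libraries hold 1 read.

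Some recurrent fragments were read from one viewpoint only. Of the 17 fragments in at least 3 N1 libraries, 7 were in no N3 library (41.2%), where 56.2% of all 265 were not reached from N3. The most recurrent, chr5:41135729-41137486, had reads in 4 N1 libraries (2 and 22 in forelimb replicates 2 and 3, and 40 and 1 in hindlimb replicates 2 and 3). On the *Nkx3-2* side of N1, chr5:41203973-41206602 had 8 reads in forelimb replicate 1 and 7 and 29 in hindlimb replicates 1 and 3. Also named were chr5:41098306-41098550, chr5:41098551-41100995 and chr5:41137540-41138208 on the other side. Each had 1 to 4 reads in 3 N1 libraries. Of the 32 fragments in at least 3 N3 libraries, 9 were in no N1 library (28.1%), where 63.4% of the 265 were not reached from N1. The short fragment chr5:41513880-41514436, 21.6 kb from N3, had 97, 247 and 271 reads in forelimb N3 and 601, 39 and 663 in hindlimb N3. It was read in all 3 liver N3 libraries as well. Next in recurrence were chr5:41616995-41619245 and chr5:41619246-41628987, each read in 5 of 6 N3 libraries. The latter takes in the 3′ end of *Rab28* and held 13, 1 and 7 reads in the forelimb libraries and 27, 0 and 15 in the hindlimb libraries. The fragments chr5:41052226-41052254 and chr5:41062235-41062451, each in 3 N3 libraries, were 483.6 and 473.5 kb from N3. They lay nearer to N1, at 113.5 and 103.4 kb. Given the depth of the N1 libraries, 0 reads on any of these N3 fragments allow up to 0.0149% of the reads in the deepest N1 library. In the shallowest the limit is 0.101%.

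Over gene bodies the counts were small. *Rab28* had 27 fragments in the TAD, of which N1 reached 2, with 20 reads in hindlimb replicate 1 and none in the other N1 libraries. N3 reached 8 of them. The forelimb N3 libraries held 28, 1 and 205 reads there and the hindlimb N3 libraries 27, 0 and 35. The 3 fragments overlapping *Nkx3-2* had 12 reads in forelimb N1 replicate 1, on 2 fragments, and none in any other N1 or N3 limb library. For N3, 0 reads allow at most 0.000169% to 0.000325% of the reads of a library, counting error alone. For the N1 libraries with 0 reads the limit was far looser, 0.0197% to 0.101%, so absence from N1 is less firm. Of the 4 *Bod1l* fragments inside the TAD, N1 reached 0 and N3 2, with 23 reads in forelimb replicate 1 and 1 in each of 2 further libraries. Reads on *Nkx3-2* itself thus came from 1 of the 12 libraries. Fragments upstream of its 5′ end were not in that count. The one centred 3.71 kb upstream had reads in 1 N1 and 0 N3 libraries. At 5.95 kb the numbers were 2 and 3, and at 8.89 kb 2 and 1. At 11.0 and 12.8 kb they were 2 and 0, and at 15.7 and 17.2 kb 1 and 5.

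The viewpoints were also read from each other. Within 25 kb of N3, 14 fragments held 34, 44 and 8 reads in forelimb N1 and 15, 0 and 0 in hindlimb N1. At the same distance on the other side of N1, outside the TAD, 29 fragments held 0 reads in 5 N1 libraries and 2 in hindlimb replicate 2. Within 25 kb of N1, 11 fragments held 93, 20 and 16 reads in forelimb N3 and 10, 0 and 13 in hindlimb N3. Their counterparts on the other side of N3 held 6, 2 and 84 reads in forelimb and 0 in each hindlimb library. Within 25 kb, N1 was thus read from N3 in 5 of 6 libraries and N3 from N1 in 4 of 6. These counts were not brought to equal depth, and the N3 libraries were far deeper. Forelimb N3 replicate 3 was the 1 library with more reads on the opposite side than at N1. Within 20 kb each viewpoint was read from the other in 4 of 6 libraries. The N1 primer fragment held 0 to 2 reads in N3 libraries and the N3 primer fragment 0 to 22 in N1 libraries. Together with the fragment after it, the N3 primer fragment took 0% to 0.251% of all reads in N1 libraries. The same pair at N1 took 0% to 0.000141% in N3 libraries. Both viewpoints were amplified in the same primer pool, and whether that contributed reads here was not tested.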

How the data were processed

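For each library the authors deposited unnormalised read counts per BglII fragment. Their processing notes name cutadapt 1.10, BWA 0.7.10-r789 and GATK 3.4-0, and reads were mapped to GRCm38 (mm10). File names carry a mapping quality limit of 30. Primer positions and the TAD were taken from the study's supplement.

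Here a fragment was placed by its midpoint, and fragments within 20 kb of the own viewpoint were left out. Shares of fragments with reads were compared between 6 N1 and 6 N3 libraries by exact permutation of the viewpoint label, side ratios against 0 by exact sign flips, all two-sided, with Benjamini-Hochberg adjustment within each family and a threshold of 0.05. Total counts ranged from 2984 to 20134 reads for N1 and from 924023 to 1772337 for N3, so N1 shares are the less precise. PCR reads are not independent molecules, and limits drawn from 0 reads (3 counts) cover counting error only. Equal-depth shares are hypergeometric expectations. Each library is 1 pool of embryos.

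Same-numbered N1 and N3 libraries share a template according to the protocol. Their deviations from the group means over 9 distances correlated at -0.03 to 0.43 (mean 0.22). The paired test flips the sign of the 6 differences. Titles were followed for the hindlimb replicate 3 libraries, whose source names give replicate 1.

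Viewpoints, measures and fragment rules were chosen with earlier results of these data known. Named fragments were, in the TAD, the 10 reached in the most libraries among those with at least 2 of each viewpoint, and up to 5 per viewpoint in at least 3 libraries and none of the other's. *Nkx3-2*, *Rab28* and *Bod1l* were named in addition. The 3 fragments with reads in all N1 libraries, the 7 in all N3 libraries and the cluster beside N1 were picked out after their values were seen. So were the fragments upstream of *Nkx3-2*. Scripts (Python 3.11.15, NumPy 2.4.6, SciPy 1.17.1, pandas 2.3.3) were tested on simulated data.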

Additional observations from a re-analysis of the deposited data

Results flagged for a closer look

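Over 48 sets of 6 libraries, 4 had a highest or lowest sample far from the other 5. Chance gives this in about 1 set in 20. At 20 to 50 kb, forelimb N1 replicate 3 had reads on 38.2% of fragments. At equal reads, forelimb N3 replicate 1 had an expected 0.258% of fragments with reads at 5 to 10 Mb. Forelimb N1 replicate 2 had the lowest log2 ratio of TAD to other chromosomes, 6.00. Hindlimb N1 replicate 2, the shallowest library, had the lowest log2 ratio of inside to outside the TAD at matched distance, -2.06.

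At equal reads, the difference between N1 and N3 at 50 to 100 kb was larger in forelimb than in hindlimb by 8.85 percentage points (exact permutation of tissue within viewpoint, 400 arrangements, p = 0.0400). After adjustment over 24 measures this exact test did not pass (p = 0.960).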

How the results depend on the processing

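The ratio of TAD to other chromosomes and TAD retention by fragments and by reads kept their direction and call under every alternative that tested 6 libraries against 6. With each library left out in turn their differences were 3.49 to 3.798 (log2), 18.0 to 19.7 and 25.3 to 29.8 percentage points. The differences below are N1 minus N3, and log2 ratios where they concern sides.

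Requiring at least 2 reads left 0 distances at which N3 was higher at equal reads. It turned the difference at 50 to 100 kb with all reads to -1.86 percentage points, turned that beyond 10 Mb at equal reads to 0.0268, and took the side at 1 to 10 Mb below the threshold at 0.91. The turned difference beyond 10 Mb passed, and the N1 call at 50 to 100 kb at equal reads was lost. Requiring at least 10 reads left 3 distances with N3 higher from all reads, and 3 with N1 and 0 with N3 higher at equal reads. The difference at 50 to 100 kb with all reads was then -2.98, that beyond 10 Mb at equal reads 0.00259, and the side at 1 to 10 Mb 0.72. With equal neighbours counted once, N3 was higher at 2 distances at equal reads and the difference at 50 to 100 kb was -1.37. The sign-flip tests then passed for inside over outside from N3 (1.14), for the near side from N1 (-1.37) and N3 (0.95), and for 1 to 10 Mb from N3 (-0.37). Without fragments under 0.5 kb, the differences at 20 to 50 kb and 50 to 100 kb were -2.44 and -3.39. The latter was -0.58 in hindlimb alone and -2.34 to 2.37 with single libraries left out.

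With libraries of one template paired, as a replicate block, the side at 1 to 10 Mb (0.63) lost its call, as did 500 kb to 1 Mb with all reads and 1 to 2 Mb at equal reads, while 100 to 200 kb with all reads gained one. Inside over outside at matched distance ranged from 1.21 to 2.55 with single libraries left out. At equal reads it was 2.24, and that test is void, since an N3 library then has an expected 0.0209 to 0.345 inside fragments with reads, below the 0.5 added. Equal reads on Chr5 alone gave 6 distances with N1 higher and 2 with N3 higher, and N3 was also higher at 2 with 8010 reads drawn from each library holding as many, an alternative chosen after seeing the data. Fragments reached from both were 38 with equal neighbours once, 17 with at least 2 libraries and 3 with at least 3. The causes were not tested. The low N1 depth, reads without molecular tags and equal counts on neighbouring fragments all limit these values, in an order that was not tested.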
